A study of Mus musculus with 4 samples.

Results

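The 48 G2 and mitosis genes described here were chosen by name from the 32285 genes counted in single cells of embryonic mouse ventricles, as genes whose products act from late G2 to the end of cell division. The rule uses gene names and no measured value, although it was set with earlier results of these data known, and all 48 are annotated as protein coding. Droplet single-cell RNA sequencing was done at E14.5 on 2 control libraries (Tie2Cre;*Ets1* fl/+) and 2 *Ets1* eKO libraries (Tie2Cre;*Ets1* fl/fl), each from 3 pooled ventricles of C57BL/6 embryos whose sex was not recorded. Both groups carried Tie2Cre, which recombines in endothelial cells, the endocardium included, and the controls had 1 floxed *Ets1* allele, so that the comparison is between loss of 1 and of both copies in the Tie2 lineage. The questions were in which cell types of the ventricle these genes were expressed, and how their levels differed between *Ets1* eKO and control cells of each type.

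Cells that divide make most of the proteins of mitosis only in G2 and M phase, so the transcripts of these genes mark cells that are about to divide or are dividing. CDK1 with cyclin B drives entry into mitosis, the kinetochore and the chromosomal passenger complex attach chromosomes to the spindle and check that attachment, and the anaphase-promoting complex then ends mitosis by tagging cyclin B and securin for destruction. Many of these genes share a pair of promoter elements, the cell cycle genes homology region (CHR), which the DREAM and B-MYB-MuvB complexes bind, and the CCAAT box, which NF-Y binds. In the fetal ventricle the myocardial wall, the endocardium that lines it and the coronary vessels all grow by cell division.

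Promoters are shown first because these genes are known for a shared promoter layout and because most of them had values of 1 sign in a class below. RefSeq promoters (GRCm38.p6), each running from 250 bases before to 50 bases after the start of the gene, were found for 42 of the 48 members, which gave 46 promoters. *Cdca2*, *Aurkb*, *Smc4*, *Dlgap5*, *Cdc25c* and *Tpx2* had none in the table. Promoters of 5 members are printed 5′ to 3′ on the strand of the gene, *Cenpf* and *Cdkn3* as the members past the test in mural endocardium, *Ccnb2* and *Cdc20* as examples with both elements at the start of the gene, and *Birc5* as a member with neither. Capitals mark the letters TTTGAA or TTCGAA (the CHR) and CCAAT, searched on both strands, so that TTCAAA and ATTGG are also marked. *Cenpf* lies on the minus strand at chr1:189688037-189688336, *Cdkn3* on the plus strand at chr14:46760291-46760590, *Ccnb2* on the minus strand at chr9:70421505-70421804, *Cdc20* on the minus strand at chr4:118437294-118437593 and *Birc5* on the plus strand at chr11:117848987-117849286.
Cenpf: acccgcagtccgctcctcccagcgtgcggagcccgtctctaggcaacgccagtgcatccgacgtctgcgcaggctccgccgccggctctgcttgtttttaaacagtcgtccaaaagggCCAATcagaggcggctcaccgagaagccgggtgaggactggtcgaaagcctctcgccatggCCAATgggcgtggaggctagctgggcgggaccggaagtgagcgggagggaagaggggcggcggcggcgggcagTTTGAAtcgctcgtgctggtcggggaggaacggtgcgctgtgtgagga
Cdkn3: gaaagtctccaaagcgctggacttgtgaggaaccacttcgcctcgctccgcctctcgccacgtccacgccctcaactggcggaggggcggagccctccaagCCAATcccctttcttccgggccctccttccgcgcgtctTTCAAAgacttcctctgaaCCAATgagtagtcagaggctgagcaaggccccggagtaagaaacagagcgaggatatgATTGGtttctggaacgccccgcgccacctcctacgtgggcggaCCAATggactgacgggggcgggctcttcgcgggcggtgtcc
Ccnb2: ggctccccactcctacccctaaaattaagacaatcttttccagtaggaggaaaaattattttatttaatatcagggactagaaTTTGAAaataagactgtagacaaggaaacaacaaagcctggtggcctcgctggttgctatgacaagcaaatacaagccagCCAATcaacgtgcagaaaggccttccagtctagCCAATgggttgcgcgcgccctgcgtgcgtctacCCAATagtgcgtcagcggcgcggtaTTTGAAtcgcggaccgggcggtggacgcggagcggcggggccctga
Cdc20: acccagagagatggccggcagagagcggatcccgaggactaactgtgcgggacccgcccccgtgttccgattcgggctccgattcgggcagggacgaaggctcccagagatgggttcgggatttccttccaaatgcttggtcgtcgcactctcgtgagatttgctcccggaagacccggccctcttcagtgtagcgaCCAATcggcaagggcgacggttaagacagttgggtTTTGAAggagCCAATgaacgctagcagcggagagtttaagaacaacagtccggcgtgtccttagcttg
Birc5: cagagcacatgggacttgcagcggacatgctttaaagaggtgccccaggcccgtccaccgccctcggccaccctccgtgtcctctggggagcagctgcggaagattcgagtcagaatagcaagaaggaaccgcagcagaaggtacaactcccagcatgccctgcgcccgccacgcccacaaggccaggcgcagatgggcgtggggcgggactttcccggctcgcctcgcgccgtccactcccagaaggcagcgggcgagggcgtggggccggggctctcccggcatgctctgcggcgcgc

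The CHR letters were in 35 of the 46 member promoters (76.1%) and in 19.2% of all 32851 promoters of the table. Within 50 bases of the start they were in 30 member promoters (65.2%) and in 5.31% of all promoters. CCAAT was in 37 member promoters (80.4%) and in 37.4% of all promoters, and both motifs were in 31 (67.4%) and 7.52%. Matches of the CHR began in the 25 bases from the start onward in 32.6% of member promoters and in 1.43% of all promoters. In *Cenpf* and *Ccnb2* the TTTGAA near the start stands downstream of each CCAAT box, in *Cdc20* it stands between the 2 boxes, and the TTCAAA of *Cdkn3* lies 111 bases before the start. Neither motif occurred in the *Birc5* window. These matches describe letters only, a CHR and a CCAAT match may share a base, and a window without a match says nothing of what binds there.

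**Figure D1:**
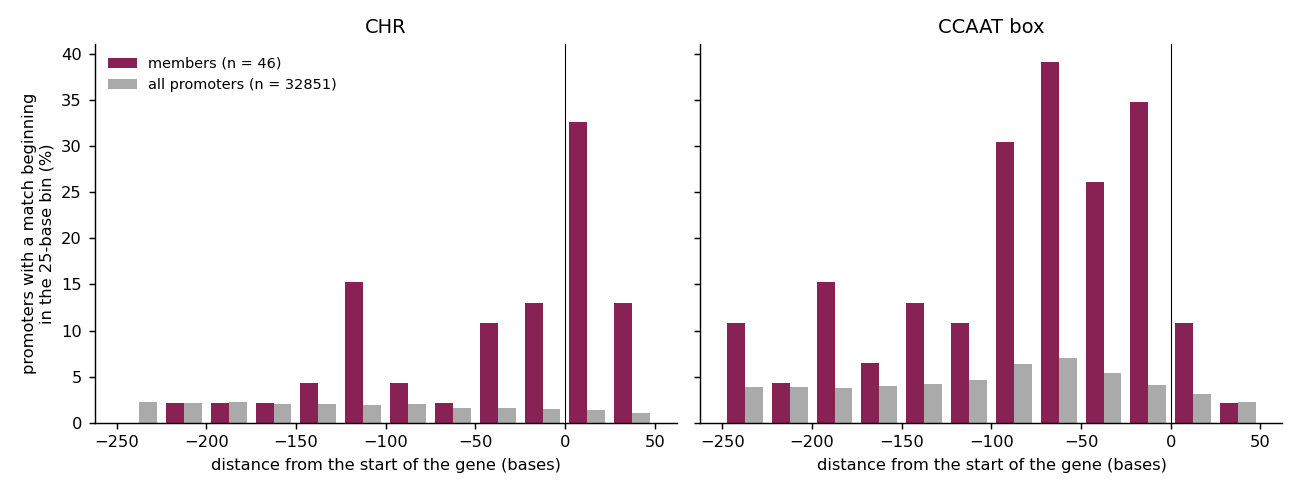
Share of promoters (%, vertical axis) with a match of the CHR (left) or the CCAAT box (right) beginning in each 25-base bin of distance from the start of the gene (bases, horizontal axis). Dark bars are the 46 promoters of the members and grey bars all 32851 promoters. CHR matches of the members pile up just after the start (32.6% against 1.43%), and CCAAT matches are most frequent in the 100 bases before it.

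The 4 libraries held 45551 barcodes, of which 34595 were placed by marker genes in 6 classes, named here after their gates: mural endocardium, valve endocardium, coronary endothelium, cardiomyocytes, mesenchyme and epicardium. No member was used in a gate. Median depth of the placed cells was 10278 and 9688.5 UMIs in control against 9957 and 6124.5 in *Ets1* eKO libraries, so *Ets1* eKO replicate 2 was the shallowest library. Any pair of libraries shared 19 to 47 cell barcodes. The libraries differed in sex makeup, since 80.3% and 41.6% of control cells had Y-linked UMIs, against 36.7% and 1.11% of *Ets1* eKO cells, and the shares with *Xist* UMIs were 0.0852% and 47.5% against 48.7% and 84.7%. Control replicate 1 thus held almost no cell with *Xist*, *Ets1* eKO replicate 2 almost no cell with a Y-linked UMI, and the other libraries were mixed. Class markers are described by level: *Npr3*, a mural marker, stood at 874 and 807 CPM (UMIs scaled to 1e+06 per library and class) in control mural cells, *Nfatc1*, the valve marker, at 391 and 401 CPM in valve cells and at 105 and 115 CPM in mural cells, and *Fabp4*, a capillary gene, at 7031 and 5917 CPM in coronary cells. The epicardium class was not set apart by mesenchyme markers, whose sum was 9816 and 8189 CPM there in the controls against 6799 and 6401 CPM in mesenchyme, but by the 7 epicardial markers, at 2881 and 2973 CPM against 77.0 and 61.8 CPM. Mural markers were also found in epicardium, at 2256 and 2448 CPM. Marker sums were used for gating, so high marker levels in a class follow from its gate and do not test its name. Levels below are CPM of the UMIs summed over the cells of a class in 1 library, so fewer expressing cells and less RNA per cell cannot be told apart in them.

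*Ets1*, which encodes the deleted transcription factor (ENSMUSG00000032035, GRCm38 chr9:32636221-32757820, plus strand), was lower in *Ets1* eKO in each endothelial class. In mural endocardium it was 275 and 258 CPM in control against 119 and 92.6 CPM in *Ets1* eKO libraries. In valve endocardium it was 289 and 300 CPM against 119 and 106 CPM, and in coronary endothelium 359 and 326 CPM against 170 and 126 CPM. The groups did not overlap in any of these classes, and the log2 fold changes were -1.27 ± 0.14 (SE) in mural, -1.36 ± 0.16 in valve and -1.13 ± 0.17 in coronary cells (n = 2 libraries each, edgeR quasi-likelihood test, Benjamini-Hochberg adjusted p = 0.00121, 0.00110 and 0.0166). The coronary call was lost when cells with markers of more than 1 lineage were kept (log2 fold change -1.16, edgeR adjusted p = 0.0944). In cardiomyocytes *Ets1* was low, at 6.69 and 7.04 CPM against 9.12 and 9.59 CPM (edgeR adjusted p = 0.452). In mesenchyme it was 102 and 89.1 CPM against 63.2 and 58.4 CPM, which did not pass the test (log2 fold change -0.56 ± 0.13, edgeR adjusted p = 0.240).

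UMIs of the members were found in every class, at summed levels that ran from 1873 CPM in epicardium to 5619 CPM in coronary endothelium in the controls. The share of background RNA in these levels was not measured. In coronary endothelium the 48 members summed to 5313 and 5619 CPM in the controls, in cardiomyocytes to 4739 and 4055 CPM, in mesenchyme to 4148 and 4068 CPM, in valve endocardium to 3419 and 4239 CPM and in mural endocardium to 2459 and 3033 CPM. Epicardium stood lowest, at 1919 and 1873 CPM. The order of cardiomyocytes, mesenchyme and valve endocardium is not resolved, since their control libraries overlap, whereas both epicardial values lie below both mural ones and these below those of the other 4 classes.

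Against cardiomyocytes, in 1 fit of all 24 sums, 45 members were lower and 1 higher in mural endocardium, *Ttk*, a kinase of the spindle checkpoint (log2 difference 0.39). Of all genes tested 78.4% differed between these classes. In valve endocardium 42 members were lower and none higher (66.3% of all genes differed), in epicardium 47 were lower and none higher (67.2%), in mesenchyme 35 were lower and 2 higher, *Hjurp* and *Tpx2* (78.4%), and in coronary endothelium 17 were lower and 16 higher (74.9%). Most genes thus differed between cell types. These fits depend on scaling: scaling by total UMIs instead of TMM moved the median of all genes by 0.20 to 0.49 on the log2 scale, and then 39 members differed in mural (3 higher), 26 in valve (3 higher), 48 in epicardial (1 higher), 31 in mesenchymal cells (13 higher, 18 lower) and 26 in coronary cells (22 higher). Of all 14846 genes, 12034, 10216, 10463, 12319 and 11225 differed in these fits, so the share of members was below that of all genes in valve, mesenchymal and coronary cells under this scaling, whereas with TMM it was above in valve cells. The median member differed from its cardiomyocyte level by -0.88 on the log2 scale in mural endocardium, -0.90 in valve endocardium, -1.6 in epicardium, -0.57 in mesenchyme and 0.03 in coronary endothelium, each with TMM.

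Over the cells of all classes together, most of the transcripts lay in a minority of cells. After each cell was thinned to 2000 UMIs, a cell was called high when it held at least 5 UMIs of members, and for each member the cells were then called on the other 47. For *Cdk1*, 34.0% of cells were high in the other members, and these cells held 89.4% of its UMIs. For 35 of the 48 members over 90% of the UMIs were in such cells, with *Hmmr*, a microtubule-binding protein of the spindle, at 97.6%. The other side held 3 members at under 80%: *Cks1b*, a small CDK-binding subunit, at 69.7%, *Hjurp*, the chaperone of the centromeric histone, at 72.3%, and *Smc4*, a condensin subunit, at 77.8%. Coronary endothelium was unlike the whole, since 50.6% to 61.4% of its cells per library were high when called on all 48. These shares are a description over cells and share the depth of each cell.

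In mural endocardium, the sheet that lines the ventricular chambers, the summed level of the members was higher in *Ets1* eKO. It was 2459 and 3033 CPM in control against 3392 and 4015 CPM in *Ets1* eKO libraries, a log2 ratio of 0.43. The groups did not overlap, and the ratio was 0.29 or 0.59 when control replicate 1 or 2 was left out, and 0.55 or 0.30 when *Ets1* eKO replicate 1 or 2 was. Without the 5 members with the highest mean level it was 0.44, so the sum did not rest on those few. No test was run on the summed level, since the members were chosen with earlier results known. Counting error was small at 20565 to 38333 member UMIs per library, and covers sampling of UMIs only.

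The share of mural cells high in the members was 14.2% (95% exact binomial interval 12.1% to 16.5%) and 18.5% (15.8% to 21.5%) in the controls, and 21.4% (18.8% to 24.2%) and 25.9% (23.8% to 28.0%) in *Ets1* eKO. High cells held on average 19.0 and 20.6 member UMIs of 2000 in control against 20.6 and 20.6 in *Ets1* eKO libraries. Both *Ets1* eKO shares were above both control shares, with overlapping intervals for control replicate 2 and *Ets1* eKO replicate 1. The level within high cells was nearly the same in 3 of the 4 libraries and slightly lower in control replicate 1. Cells under 2000 UMIs were left out, 46 and 23 in control against 33 and 128 in *Ets1* eKO libraries. Without thinning the shares were 58.8% and 62.7% against 61.0% and 47.5%, which move with the depth of the libraries (median 6804 and 7434 UMIs per mural cell against 6898 and 4262) and overlap.

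**Figure D2:**
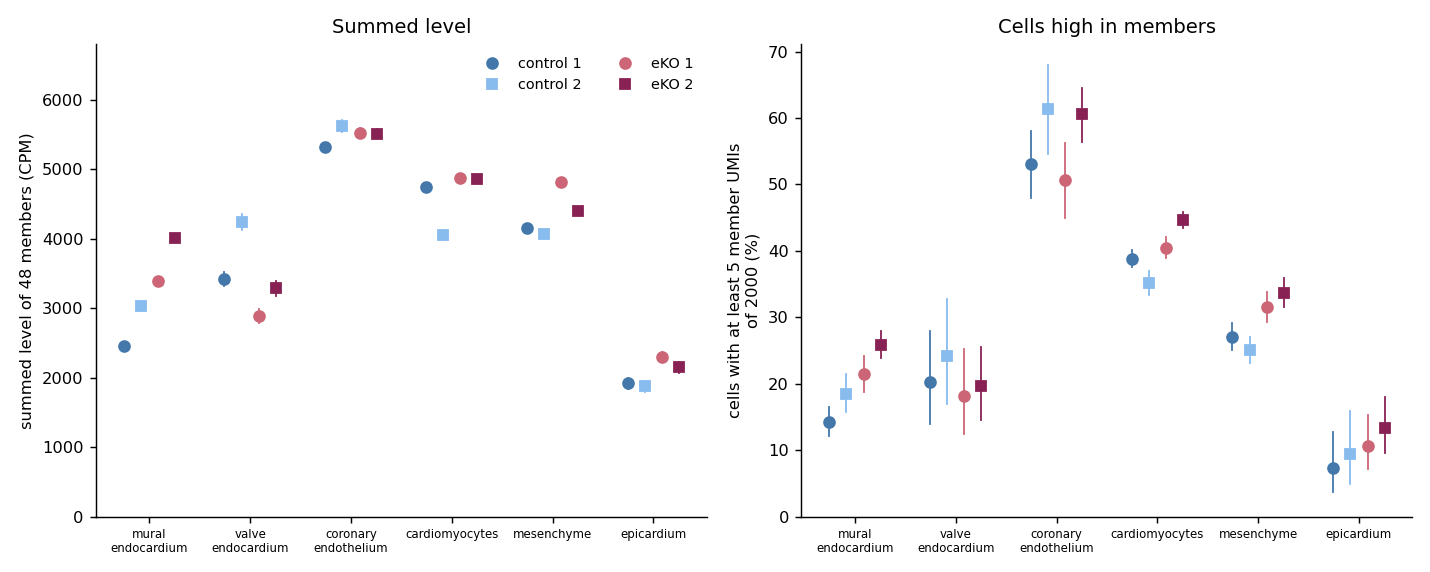
Left, summed level of the 48 members (CPM) in each class, 1 point per library with exact 95% counting intervals. Right, share of cells (%) with at least 5 member UMIs after thinning to 2000 UMIs, with exact 95% binomial intervals. Both *Ets1* eKO libraries lie above both controls in mural endocardium (2459 and 3033 against 3392 and 4015 CPM) and below both in valve endocardium (3419 and 4239 against 2884 and 3282 CPM).

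Gene by gene, all 48 members had a log2 fold change above 0 in mural endocardium, from 0.08 for *Hjurp* to 1.13 for *Psrc1*, with a median of 0.55, where the median of all 13125 genes tested was 0.000358. All 48 were also above 0 when scaled by total UMIs. Without control replicate 1 or 2, 43 or 48 were above 0 (median 0.35 or 0.78). Without *Ets1* eKO replicate 1 or 2, 47 or 44 were (median 0.65 or 0.39). Both *Ets1* eKO libraries stood above both controls for 34 of the 48 members (70.8%), against 19.1% of all genes tested. The quasi-likelihood test of edgeR, with p-values adjusted over all genes tested (Benjamini-Hochberg), called 2 members (4.17%), *Cenpf* and *Cdkn3*, against 2.58% of all genes, so the count of calls itself is near the background. At an unadjusted p under 0.05 there were 34 members (70.8%) and 20.4% of all genes. Most members had their UMIs largely in the same cells, so counts of members, here and below, are not counts of independent observations. The count of called members depended on the libraries: it was 2 or 22 when control replicate 1 or 2 was left out, and 36 or 7 when *Ets1* eKO replicate 1 or 2 was. The count over all genes moved too, from 339 of 13125 to 410 of 13360 and 428 of 13538 without either control, and to 1951 of 13601 and 688 of 13419 without either *Ets1* eKO library. The labels do not say that the libraries of a group came from separate litters, and the p-values measure the spread between libraries of pooled embryos.

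*Cenpf* (ENSMUSG00000026605, chr1:189640606-189688086, minus strand) encodes a large protein that binds kinetochores and the nuclear envelope in G2 and mitosis. Its level in mural endocardium was 94.1 and 111 CPM in control against 157 and 166 CPM in *Ets1* eKO libraries. The groups were well apart, and the gene rose by 0.72 ± 0.14 (SE) on the log2 scale (edgeR adjusted p = 0.0247). The adjusted p was 0.173 without control replicate 1 and between 1.56e-05 and 0.0434 under each other alternative. *Cdkn3* (ENSMUSG00000037628, chr14:46760541-46771669, plus strand) encodes a phosphatase that acts on cyclin-dependent kinases. It was at 10.3 and 10.5 CPM in the controls and at 16.0 and 22.5 CPM in *Ets1* eKO, from 71 to 215 UMIs per library. The groups did not overlap, and it rose by 0.96 ± 0.22 (edgeR adjusted p = 0.0462). This call was lost without *Ets1* eKO replicate 2 (0.130), with a stricter gate (0.0722), when cells with markers of more than 1 lineage were kept (0.133) and with sex as a term (0.136).

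Among the cyclin and CDK members, with the ubiquitin enzymes of the anaphase-promoting complex, 11 of 11 had positive values (median log2 fold change 0.63). *Ube2c*, the ubiquitin-conjugating enzyme of that complex, was at 110 and 115 CPM in control against 131 and 234 CPM in *Ets1* eKO libraries. *Cks2*, a CDK-binding subunit, was at 98.8 and 103 CPM against 106 and 164 CPM. *Cks1b*, its close relative, was at 105 and 106 CPM against 98.8 and 165 CPM. *Ube2c* and *Cks2* did not overlap, although *Ets1* eKO replicate 1 lay just above the controls, and *Cks1b* overlapped. *Cdk1*, the mitotic kinase itself, was at 83.6 and 98.5 CPM against 75.2 and 129 CPM and also overlapped. *Cdc20*, the activator of the complex, was at 30.1 and 37.2 CPM against 43.5 and 58.0 CPM, with *Ets1* eKO above.

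The 10 kinetochore and checkpoint members had a median of 0.57. *Cenpa*, the histone H3 variant of centromeres, was at 57.5 and 64.0 CPM in control against 75.2 and 105 CPM in *Ets1* eKO libraries. *Cenpe*, a kinesin of the kinetochore, was at 57.4 and 76.5 CPM against 88.3 and 98.0 CPM. Both genes kept the groups apart. The 3 members of the chromosomal passenger complex, which corrects attachments, had a median of 0.65. *Birc5* (survivin) was at 80.2 and 84.7 CPM against 109 and 167 CPM (log2 fold change 0.81 ± 0.19, edgeR adjusted p = 0.0516). *Cdca8* (borealin) was at 53.7 and 65.0 CPM against 76.8 and 101 CPM. *Aurkb*, the kinase of the complex, overlapped, at 19.1 and 21.4 CPM against 19.4 and 33.1 CPM.

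The 13 spindle and motor members had a median of 0.57. *Tpx2*, which activates Aurora A on the spindle, was at 59.6 and 79.6 CPM in control against 92.2 and 99.5 CPM in *Ets1* eKO libraries. *Nusap1*, which binds spindle microtubules, was at 51.7 and 67.3 CPM against 83.7 and 85.3 CPM, and *Hmmr* at 35.5 and 45.1 CPM against 50.1 and 73.2 CPM. None of these overlapped. *Psrc1*, a microtubule-binding protein of the spindle, had the highest fold of the 48, with 4.05 and 3.69 CPM against 6.77 and 9.43 CPM, from 25 to 90 UMIs (log2 fold change 1.13 ± 0.28, edgeR adjusted p = 0.0637).

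The 5 midzone and cytokinesis members had a median of 0.38 and the 6 of chromosome structure 0.34. *Prc1*, which bundles the microtubules of the midzone, was at 75.2 and 105 CPM in control against 129 and 125 CPM in *Ets1* eKO libraries. *Kif23*, a kinesin of the midzone, was at 33.6 and 53.1 CPM against 46.1 and 56.5 CPM, and *Kif20b*, a kinesin of cytokinesis, at 29.3 and 40.9 CPM against 39.1 and 55.5 CPM. *Prc1* kept the groups apart, and both kinesins overlapped. *Hmgb2*, a chromatin protein of dividing cells, was at 381 and 463 CPM against 592 and 541 CPM. *Top2a*, the topoisomerase that untangles sister chromatids, was at 131 and 218 CPM against 227 and 262 CPM, and *Smc4* at 277 and 276 CPM against 294 and 309 CPM. Their groups did not overlap, although for *Top2a* control replicate 2 lay close to *Ets1* eKO replicate 1. The 14 members that overlapped in mural endocardium were *Aurkb*, *Bub1*, *Cdca2*, *Cdk1*, *Cks1b*, *Ect2*, *Hjurp*, *Kif11*, *Kif20b*, *Kif23*, *Kif2c*, *Ncapd2*, *Ndc80* and *Nek2*.

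**Figure D3:**
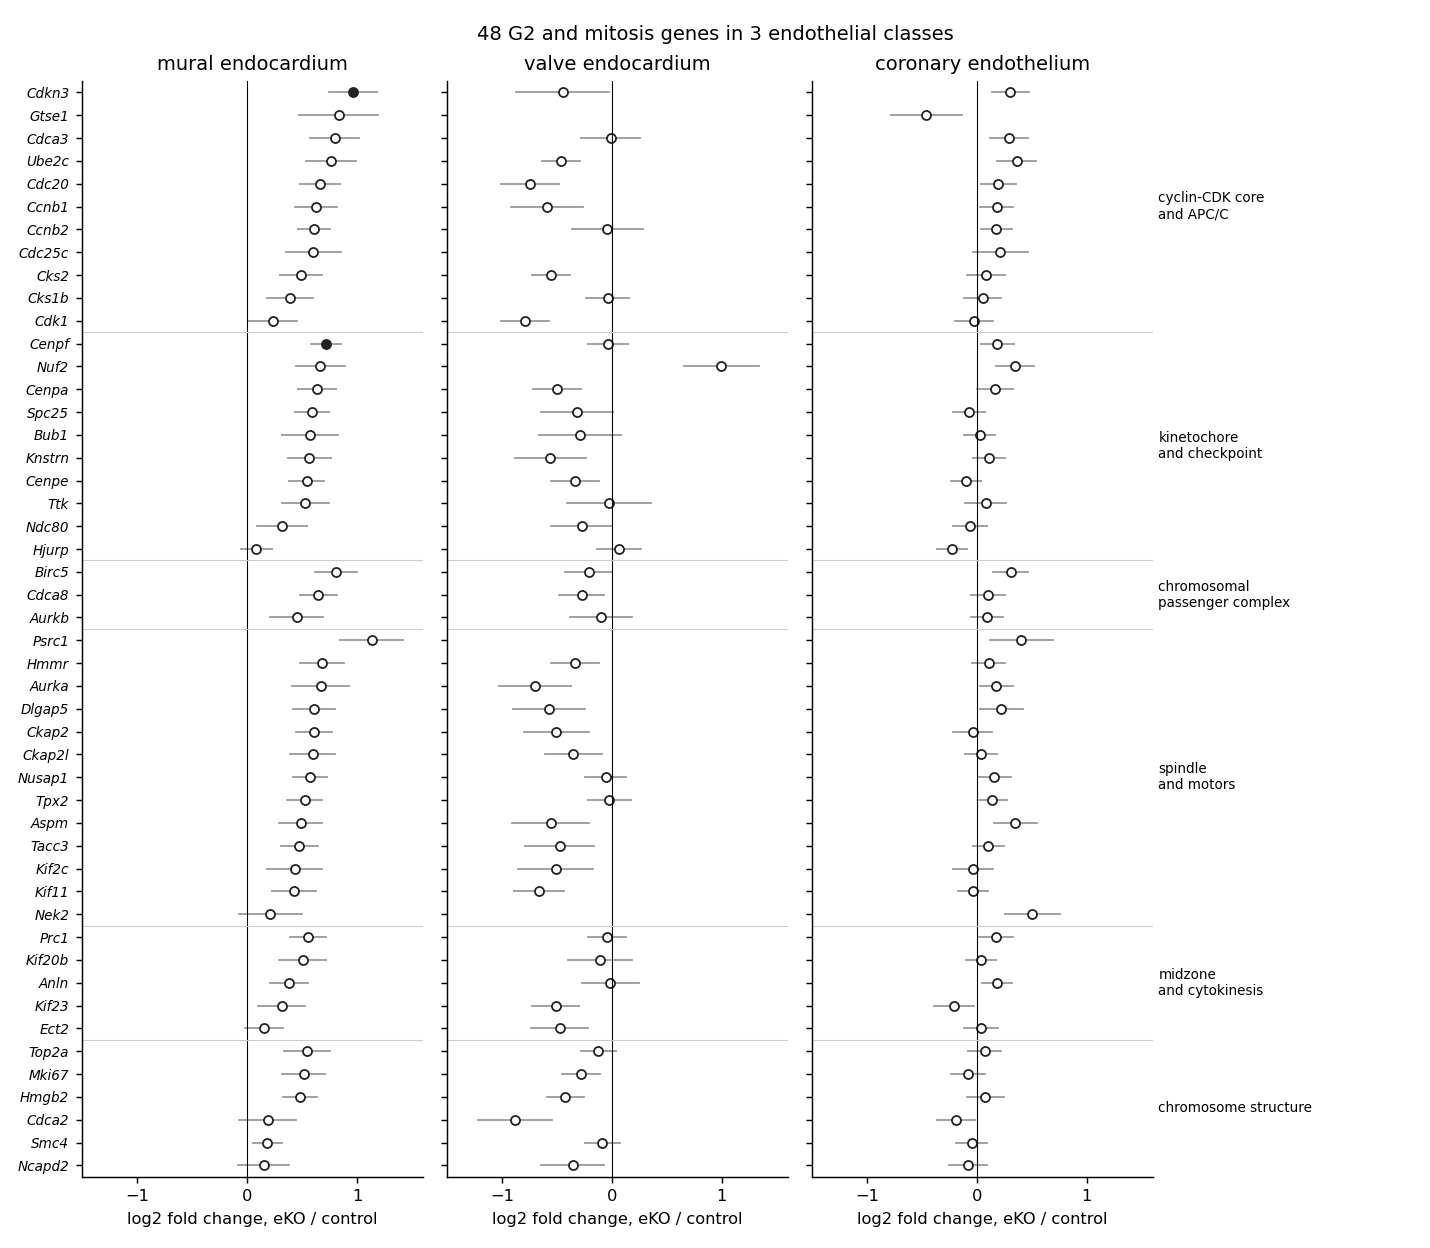
Log2 fold change of each member in *Ets1* eKO against control (horizontal axis, ± SE from edgeR) in mural endocardium, valve endocardium and coronary endothelium, ordered by role. Filled points passed the test (*Cenpf* and *Cdkn3* in mural endocardium), and members without a point did not pass the filter on low counts. All 48 points lie above 0 in mural endocardium (median 0.55), 2 of 44 in valve endocardium (median -0.34) and 34 of 48 in coronary endothelium (median 0.10).

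Valve endocardium, the cells over the forming valves, gave values of the opposite sign. The summed level was 3419 and 4239 CPM in control against 2884 and 3282 CPM in *Ets1* eKO libraries, a log2 ratio of -0.31 (-0.46 without control replicate 1, -0.15 without control replicate 2). It was -0.84 with a stricter gate, where 40 members passed the filter, all below 0, and -0.48 in female and -0.62 in male cells alone. The groups did not overlap, but control replicate 1 and *Ets1* eKO replicate 2 were close. With 149 and 130 control and 165 and 244 *Ets1* eKO cells this was among the smallest classes, and the shares of high cells, 20.3% and 24.2% against 18.2% and 19.6%, had intervals that overlap widely (55.7% and 58.5% against 49.1% and 35.2% without thinning). Of the 48 members 44 passed the filter on low counts (*Cdc25c*, *Gtse1*, *Nek2* and *Psrc1* did not), and 42 of these were below 0 (median -0.34, range -0.88 to 1.00). None passed the edgeR quasi-likelihood test (0.353% of all genes did) or DESeq2, and 11 (25%) had an unadjusted p under 0.05 in edgeR, against 8.71% of all genes. That count was 2 with DESeq2 (246 of all 9644 genes). It was 21 with sex as a term (629 of 7742) and 31 with a stricter gate (700 of 7285). The median was -0.52 or -0.15 without control replicate 1 or 2 (2 or 15 above 0). It was -0.22 or -0.49 without *Ets1* eKO replicate 1 or 2 (10 or 5 above 0). Both *Ets1* eKO libraries stood below both controls for 21 of the 44 (47.7%), against 22.0% of all genes tested.

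In valve endocardium *Cdk1* was at 106 and 122 CPM in control against 50.4 and 80.2 CPM in *Ets1* eKO libraries (log2 fold change -0.79 ± 0.22, edgeR adjusted p = 0.182). *Cdc20* was at 45.5 and 53.7 CPM against 23.5 and 34.9 CPM, from 28 to 61 UMIs per library. *Ube2c* was at 247 and 226 CPM against 143 and 196 CPM. Each of these lay lower in both *Ets1* eKO libraries, without passing the test. *Cdca2*, which brings a phosphatase to chromosomes at the end of mitosis, had the lowest value of the 44, with 23.5 and 42.3 CPM against 18.5 and 16.0 CPM (-0.88 ± 0.34, edgeR adjusted p = 0.426). *Nuf2*, a subunit of the NDC80 complex of the kinetochore, went the other way, at 14.4 and 9.69 CPM in control against 22.7 and 25.5 CPM in *Ets1* eKO libraries (1.00 ± 0.34, edgeR adjusted p = 0.338), from 11 to 27 UMIs per library. Its partners *Ndc80* and *Spc25* had values below 0. *Hjurp* at 0.06 was the other member above 0.

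The difference between mural and valve endocardium was tested in 1 fit of the 8 sums, with library and class as terms. By the class by condition term, 17 of the 48 members (35.4%) differed in their *Ets1* eKO effect between these classes, against 1.04% of all genes tested, each with the mural effect higher. They span all roles: *Cdc20* (log2 difference 1.42), *Ube2c* (1.20), *Ccnb1* (1.20), *Cks2* (1.03) and *Cdk1* (1.02) of the cyclin and CDK members, *Cenpa* (1.13), *Cenpe* (0.88) and *Cenpf* (0.77) of the kinetochore, *Birc5* (1.01) and *Cdca8* (0.93) of the passenger complex, *Aurka* (1.37), *Kif11* (1.11) and *Hmmr* (1.01) of the spindle, *Prc1* (0.62) of the midzone, and *Hmgb2* (0.92), *Mki67* (0.82) and *Top2a* (0.71) of chromosome structure. For *Hmgb2*, at 381 and 463 against 592 and 541 CPM in mural and at 486 and 613 against 422 and 385 CPM in valve cells, the groups were apart in both classes and in opposite directions (edgeR adjusted p = 9.44e-06). For *Ube2c* the edgeR adjusted p was 1.64e-05. DESeq2 gave 2 members, *Hmgb2* and *Ube2c* (25 of all genes), total UMI scaling 15 (121) and no filter on low counts 18 (214). The median difference of the members was 0.90, and 0.86 to 0.98 without single libraries. Over the 7 alternatives run it was 0.87 to 0.94 for *Hmgb2* and 0.98 to 1.40 for *Ube2c*. A fit without 1 library leaves 1 in its group, so its spread rests on the other group and its calls say little of stability.

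**Figure D4:**
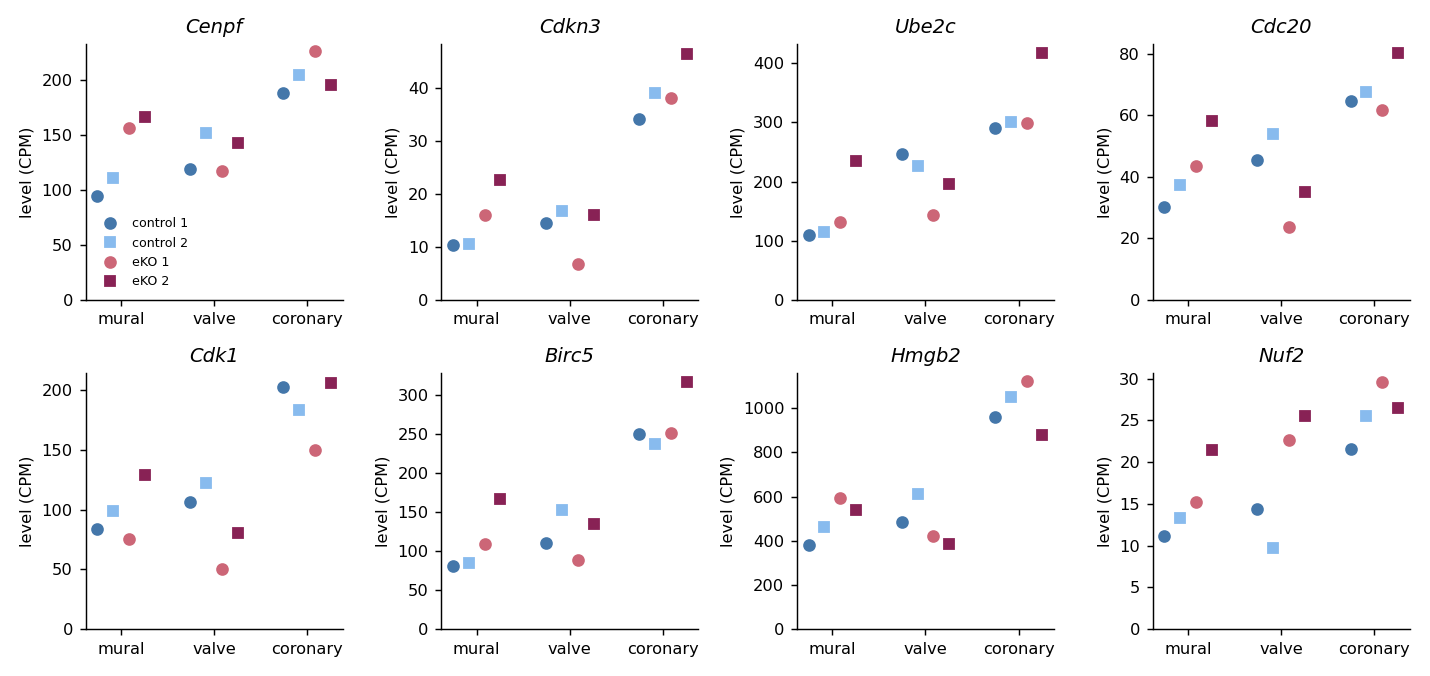
Level (CPM) of 8 members in mural endocardium, valve endocardium and coronary endothelium, 1 point per library. For *Ube2c*, *Cdc20* and *Hmgb2* the *Ets1* eKO libraries lie above the controls in mural and below them in valve cells, and *Nuf2* lies above in both.

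Ratios were also taken within each library, where both classes come from the same embryos and the same library. The summed level in mural over that in valve endocardium was 0.719 and 0.716 in control against 1.18 and 1.22 in *Ets1* eKO libraries. Mural cells thus held less of the members than valve cells of the same pool in both controls and more in both *Ets1* eKO libraries. The ratio to coronary endothelium was 0.463 and 0.540 against 0.615 and 0.729, also apart over all cells. In male or female cells alone it was 0.480, 0.684 and 0.388 in control against 0.673, 0.562 and 0.732 in *Ets1* eKO libraries, which overlap. The ratio to cardiomyocytes, 0.519 and 0.748 against 0.697 and 0.828, overlapped.

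Sex makeup differed between the groups, so the summed level was also taken by sex. In both mixed libraries female mural cells held more of the members than male ones: 3465 against 2424 CPM in control replicate 2 and 3751 against 3129 CPM in *Ets1* eKO replicate 1. The same was seen in valve endocardium, at 5131 against 3569 CPM and 3795 against 2293 CPM, and by less in mesenchyme, at 4143 against 4130 CPM and 5212 against 4991 CPM. Female cardiomyocytes held less than male ones there, 4046 against 4185 CPM and 4827 against 5069 CPM, and the order of the sexes in coronary cells was 5062 against 6240 CPM and 5576 against 5570 CPM. Among female mural cells the summed level was 3465 CPM in control replicate 2 and 3751 and 4151 CPM in *Ets1* eKO, a log2 ratio of 0.19, and among male cells 2542 and 2424 CPM in the controls and 3129 CPM in *Ets1* eKO replicate 1, a ratio of 0.33. *Ets1* eKO was higher within each sex, by less than in the pooled comparison, with 1 library on 1 side of each. The fit with sex as a term took, in every class, the female and male sums of a mixed library as separate units, with no term for the library. Parts of 1 pool are not replicates, so the p-values and calls of that fit overstate the number of units. In it, 44 of the 48 members were above 0 in mural cells, with a median of 0.35. *Cenpf* was the only member called, while 510 of all 11790 genes were. The ratio of mural to valve endocardium was 0.729, 0.675 and 0.679 in the male or female parts of the controls and 0.988, 1.36 and 1.16 in those of *Ets1* eKO, with every *Ets1* eKO part above every control part.

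**Figure D5:**
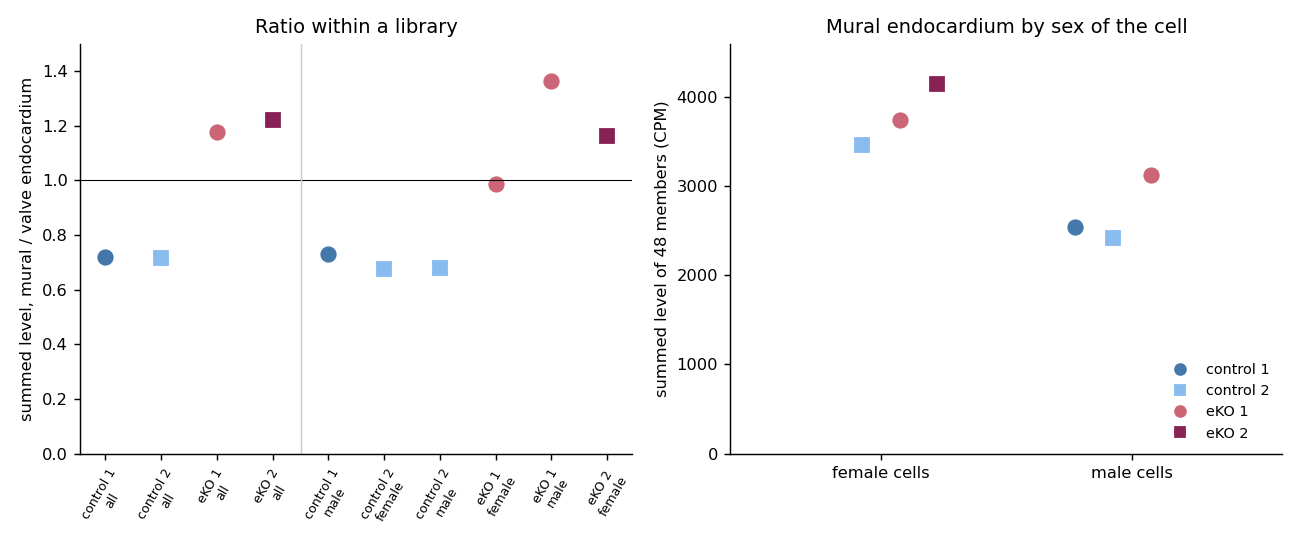
Left, ratio of the summed level of the members in mural over valve endocardium within each library, for all cells and for its male and female cells (parts of at least 20 cells). Right, summed level (CPM) in female and male mural cells of each library. The *Ets1* eKO ratios (0.988 to 1.36) lie above the control ratios (0.675 to 0.729) in all parts, and female cells lie above male cells in both mixed libraries.

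Other markers moved with the mural result. The 5 mural markers summed to 4772 and 4579 CPM in control and 3797 and 3483 CPM in *Ets1* eKO mural cells, and the 8 mesenchyme markers to 569 and 537 CPM against 827 and 780 CPM. The 6 valve markers in mural cells were at 198 and 219 CPM against 190 and 158 CPM, and the 8 immune markers at no more than 7.33 CPM in sum. The 8 cardiomyocyte markers were at 1274 and 726 CPM against 1215 and 1496 CPM and overlapped. In valve cells the 6 valve markers were at 2077 and 1815 CPM against 2121 and 1835 CPM and overlapped, while the mesenchyme markers were at 747 and 726 CPM against 689 and 670 CPM, the smooth muscle markers at 149 and 177 CPM against 144 and 122 CPM and the coronary markers at 192 and 167 CPM against 217 and 215 CPM. Mural cells were 11.3% and 12.6% of the placed cells in control against 12.7% and 16.5% in *Ets1* eKO libraries. The part of these shifts in the members' levels was not tested.

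In coronary endothelium the members did not separate the groups, with summed levels of 5313 and 5619 CPM in control against 5514 and 5507 CPM in *Ets1* eKO libraries and high cells at 53.0% and 61.4% against 50.6% and 60.6%. None of the 48 passed edgeR (0.587% of all genes did) or DESeq2, none had an unadjusted p under 0.05 in edgeR, and both *Ets1* eKO libraries were above both controls for 5 members (10.4%, against 14.4% of all genes) and below both for 9 (18.8%, against 31.2%). There were 34 members above 0 (median 0.10), and 25 when scaled by total UMIs. The values ran from -0.46 for *Gtse1*, a microtubule-binding protein of G2, to 0.50 for *Nek2*, a kinase of the centrosome, which was at 8.62 and 7.24 CPM against 10.9 and 10.7 CPM. The *Ets1* eKO effect in mural cells was higher than in coronary cells for 10 members (20.8%, against 1.79% of all genes): *Spc25* (0.68), *Cenpe* (0.67), *Mki67* (0.65), *Hmmr* (0.59), *Cdca8* (0.55), *Cenpf* (0.55), *Birc5* (0.50), *Cenpa* (0.48), *Hmgb2* (0.43) and *Cks2* (0.40). That count was unsteady, at 1 or 28 when control replicate 1 or 2 was left out, 23 or 0 when *Ets1* eKO replicate 1 or 2 was, and 0 with DESeq2 (12 at an unadjusted p under 0.05). The same fits called 164, 443, 311 and 143 of all genes without these libraries in that order, and 39 with DESeq2. In the DESeq2 fit 352 of all 13187 genes had an unadjusted p under 0.05. The edgeR test of mural against coronary effects uses the same mural sums as that against valve endocardium.

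Cardiomyocytes, the cells of the wall and trabeculae, had summed levels of 4739 and 4055 CPM in control against 4868 and 4850 CPM in *Ets1* eKO libraries. The groups did not overlap, but control replicate 1 lay close to both *Ets1* eKO libraries, and the log2 ratio of 0.14 was 0.04 without control replicate 2 and 0.28 in female cells alone. High cells were 38.8% and 35.2% in control against 40.5% and 44.6% in *Ets1* eKO libraries. The intervals of control replicate 1 and *Ets1* eKO replicate 1 overlapped. Without thinning the shares were 73.3% and 70.0% against 75.2% and 68.7%, which overlap. Of the 48 members 44 were above 0 (median 0.21), and 33 when scaled by total UMIs, which moved the median of all genes here by -0.11. With sex as a term 47 were above 0 and 23 had an unadjusted p under 0.05, as did 2692 of all 14659 genes, and none was called. No member passed edgeR, as no gene did (0% of all genes), and none passed DESeq2, with 7 members (14.6%) at an unadjusted p under 0.05 in edgeR, against 10.7% of all genes. Without *Ets1* eKO replicate 1, 5 members did pass, as did 2066 of all 17000 genes tested in that fit. Both *Ets1* eKO libraries were above both controls for 8 members (16.7%, against 11.1% of all genes) and below both for 6 (12.5%, against 37.5%). *Birc5* had the highest value, at 178 and 135 CPM against 180 and 237 CPM (0.53 ± 0.21, edgeR adjusted p = 0.452), and *Gtse1* the lowest, at 5.91 and 5.23 CPM against 4.73 and 4.22 CPM. In cardiomyocytes with high *Tnnt1* and low *Nppa*, which are marks of the compact wall, the sum was 5183 and 4754 CPM against 5771 and 5758 CPM. In this subset 45 members were above 0 (median 0.29) and 18 had an unadjusted p under 0.05, as did 1327 of all 13954 genes. None of the 48 was called, and no gene was. The median depended on the controls, at 0.37 or 0.18 without control replicate 1 or 2 (45 or 43 above 0). It was 0.28 without either *Ets1* eKO replicate (42 or 44 above 0). In cardiomyocytes high in *Nppa*, a mark of trabeculae, the sum was 3826 and 3298 CPM against 4095 and 3696 CPM, which overlap. There 36 members were above 0 (median 0.13), 4 had an unadjusted p under 0.05, as did 1774 of all 12756 genes, and none was called. Without *Ets1* eKO replicate 1 only 23 were above 0 (median -0.039), and of 10 called 7 were higher and 3 lower (2471 of all 13632 genes were called), while 1 was called without *Ets1* eKO replicate 2 (244 of 12705). The *Nppa*-high cells stood lower than the former in each library. No member differed between mural cells and cardiomyocytes in its *Ets1* eKO effect by edgeR (0.399% of all genes did) or DESeq2, with 8 (16.7%) at an unadjusted p under 0.05 in edgeR against 9.65% of all genes. The median difference was 0.35, with all 48 above 0. It was 0.026 or 0.71 without control replicate 1 or 2 (26 or 48 above 0). Without *Ets1* eKO replicate 1 or 2 it was 0.47 or 0.18 (48 or 43 above 0).

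In mesenchyme the sums were 4148 and 4068 CPM in control against 4816 and 4401 CPM in *Ets1* eKO libraries. Their log2 ratio was 0.17, and 0.099 or 0.23 without *Ets1* eKO replicate 1 or 2. High cells were 27.0% and 25.1% against 31.5% and 33.7%. The groups did not overlap in the sums or in these shares, but without thinning the shares were 54.0% and 47.6% against 53.7% and 42.5%, which overlap. Both *Ets1* eKO libraries were above both controls for 23 of the 48 members (47.9%), against 12.0% of all genes, and 45 had values above 0 (median 0.26). With sex as a term 47 did (median 0.36), and 29 had an unadjusted p under 0.05, as did 2291 of all 13251 genes. None passed edgeR (0.0337% of all genes did) or DESeq2, with 16 (33.3%) at an unadjusted p under 0.05 in edgeR, against 10.5% of all genes. That count was 3 with total UMI scaling (1892 of all 14847 genes) and 7 with DESeq2 (929). The median was 0.31 or 0.20 without control replicate 1 or 2. It was 0.19 or 0.29 without *Ets1* eKO replicate 1 or 2. *Cdkn3* had the highest value, with 18.1 and 17.7 CPM against 23.4 and 23.7 CPM (0.49 ± 0.13, edgeR adjusted p = 0.303). The 6 smooth muscle markers moved with this, from 360 and 462 CPM in the controls to 253 and 211 CPM in *Ets1* eKO mesenchyme. Valve markers were at 114 and 114 against 97.5 and 99.9 CPM, and mural markers at 496 and 588 against 486 and 476 CPM. Epicardial markers were at 77.0 and 61.8 against 84.0 and 80.8 CPM, and erythroid ones at 196 and 85.1 against 199 and 261 CPM. The part of these shifts in the members' levels was not tested here.

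Epicardium, the outer layer, had the lowest sums, 1919 and 1873 CPM in control against 2302 and 2149 CPM in *Ets1* eKO libraries (log2 ratio 0.23). The direction was not the same in both sexes, with a log2 ratio of 0.98 in female and -0.24 in male cells. The sums came from 156 and 135 control and 262 and 304 *Ets1* eKO cells. Other markers moved too: the 6 smooth muscle markers were at 218 and 392 CPM against 138 and 128 CPM, the 8 mesenchyme markers at 9816 and 8189 CPM against 8011 and 7201 CPM, and the 7 epicardial markers at 2881 and 2973 CPM against 2428 and 2654 CPM, and their part in the members' levels was not tested. The high cells, 7.28% and 9.45% against 10.7% and 13.4%, had overlapping intervals, and without thinning they were 33.3% and 35.6% against 31.3% and 21.1%. Of the 43 members that passed the filter 36 were above 0 (median 0.23), and both *Ets1* eKO libraries were above both controls for 17 (39.5%, against 12.8% of all genes). None passed edgeR (0.108% of all genes did) or DESeq2, with 10 (23.3%) at an unadjusted p under 0.05 in edgeR, against 6.91% of all genes. That count was 0 with cells of more than 1 lineage kept (655 of 10268 genes, member median 0.16). It was also 0 with DESeq2 (136 of 10195). Total UMI scaling gave 5 (805 of 10195), and a stricter cell filter 11 (690 of 10073). *Bub1*, a kinase of the spindle checkpoint, had the highest value, at 7.33 and 7.5 CPM against 14.5 and 12.4 CPM (0.94 ± 0.42, edgeR adjusted p = 0.684), from 8 to 28 UMIs per library.

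Other genes of the cell cycle were read from the same fits, in lists that hold no member, and none of them passed the edgeR test in mural or valve endocardium. Of 33 other G2 and mitosis genes 31 were above 0 in mural endocardium (median 0.41, 18 at an unadjusted p under 0.05), and 12 of 31 in valve endocardium (median -0.16). *Ccna2*, cyclin A2, chosen here after its value was seen, was the nearest to the threshold of those looked at in mural cells (0.74 ± 0.18, edgeR adjusted p = 0.0608). Of 28 S phase genes 27 were above 0 in mural endocardium (median 0.36), but their summed level, 840 and 1156 CPM in control against 1035 and 1345 CPM in *Ets1* eKO libraries, overlapped between the groups. In valve endocardium 17 of 27 S phase genes were above 0 (median 0.15), and their sum was 1049 and 1135 CPM against 1202 and 1099 CPM, also overlapping. Of 15 G1 cyclins and CDK inhibitors 12 were above 0 in each of mural (median 0.40) and valve endocardium (median 0.17). Their summed level was 6930 and 7283 CPM in control against 8499 and 10027.5 CPM in *Ets1* eKO mural cells. In valve cells it was 2221 and 2166 CPM against 2978 and 4171 CPM, so the groups were apart in both classes. This list joins cyclins with inhibitors of CDKs, so its sum is not a measure of division. Of 12 regulators of G2 and mitosis genes 8 were above 0 in mural endocardium (median 0.23). Between classes, the mural effect was higher than the valve one for 7 of the 33 other G2 and mitosis genes (1.04% of all genes differed). It was higher than the coronary one for 2 of the 33 (1.79% of all genes). For 1 of the 15 G1 cyclins and CDK inhibitors it was lower than the valve one.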

How the data were processed

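The authors deposited, for each of the 4 libraries, a matrix of UMI counts per gene and called cell, made per the submitters' processing notes with Cell Ranger 7.1.0 on mm10 and not normalized. The files held 76931208 to 124140739 UMIs per library. The filter of the study's methods was applied, which keeps cells with 200 to 7000 genes and removes those over 20% mitochondrial, over 35% ribosomal or over 2% hemoglobin UMIs, and 41563 of 45551 passed. Its removal of background RNA and its filters on exon reads were not repeated, and no doublet caller was run. Cells of at least 1000 UMIs were gated on summed marker UMIs per 10000: 150 for cardiomyocytes, 8 endothelial, 15 mesenchyme, 10 epicardium, 10 immune, 30 smooth muscle and 30 erythroid, with cells over gates of more than 1 lineage left out, except that epicardial cells could also pass the mesenchyme gate, and endothelial cells could where their mesenchyme markers were below their endothelial ones. Endothelial cells were split by coronary (20, and above the mural markers), valve (8) and mural (10) markers, in that order. Cardiomyocytes were split at 10 for *Tnnt1* and at 5 and 20 for *Nppa*. Cells were called female by *Xist* and male by Y-linked UMIs.

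The UMIs of a class were added up within each library. These sums were compared by the quasi-likelihood test of edgeR 4.0.16 after TMM scaling and filterByExpr (limma 3.58.1, R 4.3.3), with Benjamini-Hochberg adjustment over all genes tested at 0.05, and with DESeq2 1.42.0 as an alternative. The effect of *Ets1* eKO was compared between classes by a class by condition term with the library as a term. For the fit with sex as a term the sums were taken by sex within each library. A mixed library thus entered with a female and a male sum, and no library term was fitted. The tests were also run on simulated data, and no outcome of that check is given here. Gating and figures were made in Python 3.11.15 (scipy 1.17.1, numpy 2.4.6, matplotlib 3.10.9, pandas 2.3.3). Positions are from GENCODE vM21 (GRCm38). Intervals are exact at 95% and cover counting error only, since cells of 1 pool are not replicates.

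The members and all gene lists were chosen with earlier results of these data known. Genes were named by a rule: the 3 members with the highest mean level in each role, those past the threshold in any class, the highest and lowest value in each class, *Ets1*, and genes of the other lists past the threshold within a class, of which there were none. Genes of those lists past the threshold only between classes are not named. *Cdk1*, *Cdc20*, *Psrc1* and further members past the threshold of a test between classes were added after their values were seen. Replicate numbers were not taken to pair the libraries. The correlations of their deviations ran from -0.13 to 0.01, but with only 2 pairs these values cannot settle whether the numbers pair them. Alternatives were total UMI scaling, no filter on low counts, DESeq2, each library left out, the replicate number as a block, stricter cell filters and gates, cells with markers of more than 1 lineage kept, other cuts for high cells, and, chosen after the data were seen, no upper limit on genes, sex as a term, each sex alone and crossed replicate numbers.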

Additional observations from a re-analysis of the deposited data

Results flagged for a closer look

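The effect of *Ets1* eKO differed between mural and valve endocardium for 17 members, by the class by condition term in edgeR (quasi-likelihood, Benjamini-Hochberg adjusted), against 1.04% of all genes. The count was 2 with DESeq2 (25 of all genes) and 12 to 17 without single libraries (119 to 194). The log2 differences, mural minus valve, were 1.42 for *Cdc20*, 1.37 for *Aurka*, 1.20 for *Ube2c*, 1.20 for *Ccnb1*, 1.13 for *Cenpa*, 1.11 for *Kif11*, 1.03 for *Cks2*, 1.02 for *Cdk1*, 1.01 for *Hmmr*, 1.01 for *Birc5*, 0.93 for *Cdca8*, 0.92 for *Hmgb2*, 0.88 for *Cenpe*, 0.82 for *Mki67*, 0.77 for *Cenpf*, 0.71 for *Top2a* and 0.62 for *Prc1*. The summed level of all 48 members differed in the same direction by 0.74 on the log2 scale, higher in both *Ets1* eKO libraries in mural cells and lower in both in valve cells, and that difference was not tested.

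The effect also differed between mural and coronary endothelium, by the same kind of test, for 10 members, against 1.79% of all genes. None of these calls was left with DESeq2 or without *Ets1* eKO replicate 2, and the count was 1 without control replicate 1. The differences, mural minus coronary, were 0.68 for *Spc25*, 0.67 for *Cenpe*, 0.65 for *Mki67*, 0.59 for *Hmmr*, 0.55 for *Cdca8*, 0.55 for *Cenpf*, 0.50 for *Birc5*, 0.48 for *Cenpa*, 0.43 for *Hmgb2* and 0.40 for *Cks2*. Both lists use the same mural sums and are not independent.

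*Ets1* itself differed in its effect between mural endocardium and cardiomyocytes, with a log2 difference of -1.83. It was lower in *Ets1* eKO in the Tie2 lineage and near 10 CPM or under in cardiomyocytes of both groups.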

How the results depend on the processing

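The members called in mural endocardium numbered 2 (of 339 genes called), and 4 with DESeq2 (352 genes), 4 with a stricter cell filter (391), 1 with cells of more than 1 lineage kept (173), 1 with sex as a term (510), 29 with no filter on low counts (1051 of 21106 genes tested) and 2 to 36 with single libraries left out (410 to 1951). With the replicate block they numbered 23 in mural (751 genes), 1 in valve endocardium (106 genes) and 0 in the other 4 classes (44 to 197 genes). With crossed replicate numbers they numbered 21 (909 genes), 1 (211) and 0 (22 to 672). Whether the numbers pair the libraries is not known, so neither count is preferred. In valve endocardium 1 member was called with no filter on low counts (164 genes), and 0 to 1 with single libraries left out (75 to 115 genes), as in coronary endothelium (102 to 350) and epicardium (24 to 81), against 0 to 5 in cardiomyocytes (6 to 2066). The count of members whose effect differed from mural endocardium was 2 with DESeq2 (25 genes) for valve cells. It was 0 with DESeq2 (39 genes), 25 with no filter (397 of 21991) and 0 to 28 without single libraries (143 to 443) for coronary cells, and 7 with no filter (583 of 24861) and 0 to 29 without single libraries (62 to 362) for cardiomyocytes. Scaling by total UMIs gave 26 members with a lower or higher level in valve cells than in cardiomyocytes (10216 of 14846 genes, a larger share than of the members).

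The log2 ratio of summed levels kept its sign under each alternative in mural and valve endocardium, cardiomyocytes and mesenchyme. It was 0.19 in female mural cells, -0.84 in valve cells with a stricter gate and -0.62 in male valve cells, 0.28 in female cardiomyocytes and 0.25 in both female and male mesenchyme. It was 0.15 in female and -0.051 in male coronary cells, and in epicardium 0.98 in female cells, -0.24 in male cells and 0.13 with cells of more than 1 lineage kept. Without thinning, the log2 ratio of shares of high cells was -0.16 in mural, -0.44 in valve, 0.0055 in cardiomyocyte, -0.079 in mesenchymal and -0.40 in epicardial cells. With 1000 UMIs it was 0.23 in mesenchyme, and with at least 3 member UMIs 0.19 in epicardium. *Ets1* in coronary endothelium kept its size with cells of more than 1 lineage kept (-1.16), with an edgeR adjusted p of 0.0944, and in cardiomyocytes it passed the test without *Ets1* eKO replicate 1 (0.63), its range without single libraries being 0.50 to 0.63. The causes of these changes were not tested. Valve endocardium and epicardium had few cells, and single members there can rest on fewer than 20 UMIs per library.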
